A study of Mus musculus with 12 samples.

Results

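White fat of mice that lack a microRNA cluster on the X chromosome was compared with white fat of wild-type (WT) mice, gene by gene. The comparison was chosen by the label of the deposited count columns and holds 6 of the 12 libraries of the series, 3 from WT and 3 from knockout (KO) fat. The other 6 libraries are from liver of the same kinds of mice and serve here to measure liver RNA in the fat samples and for 1 comparison of the genotype effect between the tissues. All mice, WT and KO, were male, 52 weeks old and fasted for 12 hours, and were bled and had their vessels washed with phosphate-buffered saline before the inguinal fat was frozen. The KO mice are named for the miR-322, miR-503 and miR-351 cluster; the design of the allele, the strain and the number of animals behind each library are not stated in the labels. Nothing says that each library of a group is a separate animal, so a p-value here measures only the spread among these libraries, which may be technical.

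MicroRNAs are short RNAs that pair through bases 2 to 8, the seed, with sites in the 3′ untranslated region (UTR) of messages and lower the stability or translation of those messages. miR-322 and miR-503 belong to the miR-15/16 family, known for targets among cell cycle and growth factor genes, whereas miR-351 has a seed of the miR-125 family. White adipocytes store triglyceride. They can make its fatty acids from glucose by de novo lipogenesis, in which citrate leaves the mitochondrion, is cleaved to acetyl-CoA and is built into palmitate, a pathway that insulin promotes and fasting lowers.

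The mature sequences are printed because the seeds define the sites counted below. They are from RefSeq (GRCm38.p6), read 5′ to 3′, with the seed in capitals. The sequences of miR-322-5p and miR-503-5p share 6 of the 7 seed letters, and miR-351-5p has an unrelated seed.
miR-322-5p: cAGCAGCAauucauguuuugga
miR-503-5p: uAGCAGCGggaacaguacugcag
miR-351-5p: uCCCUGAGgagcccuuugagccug

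The targeted locus was read first as a check of the labels. Mir503 (X chromosome, minus strand, 53053984 to 53054054 in GRCm38) had 17, 21 and 10 counts in WT libraries 1, 2 and 3, and 0 in each KO library. Mir322 (53054255 to 53054349) had 12, 10 and 15 counts in WT and 0 in each KO library. With a floor of 3 counts over the KO group, Mir503 was at least 16-fold and Mir322 at least 12.3-fold lower in KO fat. The third microRNA gene of the cluster went the other way: Mir351 (53053255 to 53053353) had 13, 11 and 9 counts in WT and 38, 60 and 48 in KO libraries (log2 fold change 2.17 ± 0.38, DESeq2 adjusted p = 0.0210). C430049B03Rik, a long noncoding gene beside Mir322, had 11, 33 and 12 counts in WT and 467, 302 and 348 in KO libraries. Its log2 fold change (KO minus WT, ± SE) was 4.35 ± 0.42, with an adjusted p of 0.0708 by edgeR's quasi-likelihood test and 3.65e-27 by DESeq2; without WT 2 the edgeR value was 0.0157. Gm28730 (53051194 to 53053159), on the other side of Mir351, had 5, 3 and 9 counts in WT and 0 in each KO library, at least 5.66-fold lower. The labels thus matched the counts at Mir322 and Mir503 in 6 of 6 libraries. Counts over Mir351, which lies between genes without counts in KO libraries, were not lost. These are long-RNA libraries, and the mature microRNAs were not analysed here.

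Each fat library held 14531438 to 15971178 counts, so 3 counts correspond to 0.188 to 0.206 CPM, counts scaled to the library's total, and 21892 to 22963 genes were detected. Between libraries of 1 genotype the chi-square per degree of freedom was 21 to 69.7, well above counting noise. Each library was counted as its own sample, although this spread does not show that they are separate animals. The adipocyte markers summed to 47380 to 57390 CPM in WT and 53320 to 60770 CPM in KO libraries, which matches the labelled tissue. On the first principal component (38.7% of the variance) WT library 1 lay at -48 and the other WT libraries at 26.5 and 61.1, with the KO libraries between them at -16.5 to -9.20.

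Liver RNA was present in the fat libraries, in amounts that overlapped between the genotypes. With 3 libraries per group, the values cannot show whether the amount differs by genotype. Alb, the serum albumin gene that hepatocytes express, stood at 1863, 125 and 76.8 CPM in WT and at 1977, 228 and 731 CPM in KO libraries. The 2 highest libraries were WT 1 and KO 1, and the groups overlapped. As a share of the mean liver level this is 2.23%, 0.150% and 0.0920% in WT and 2.37%, 0.273% and 0.875% in KO libraries. The median over 22 hepatocyte markers lay close to the share of Alb in each library, from 0.119% in WT 3 to 2.94% in KO 1. Of these markers, 21 were higher in KO fat (median log2 fold change 0.52), and 0 reached an unadjusted p of 0.05; without KO 1 only 3 were higher, and without WT 3 there were 11. Cyp2e1, Trf and Apoc1 stood above the other markers in all 6 libraries. Scaled by Alb, the liver level of each gene corresponds to at most 4.89% of the Acly level and 1.32% of the Fasn level in any fat library, but to 11% for Acss2, 17.2% for Mlxipl, 23.0% for Elovl6 and 25.1% for Angptl8.

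**Figure D1:**
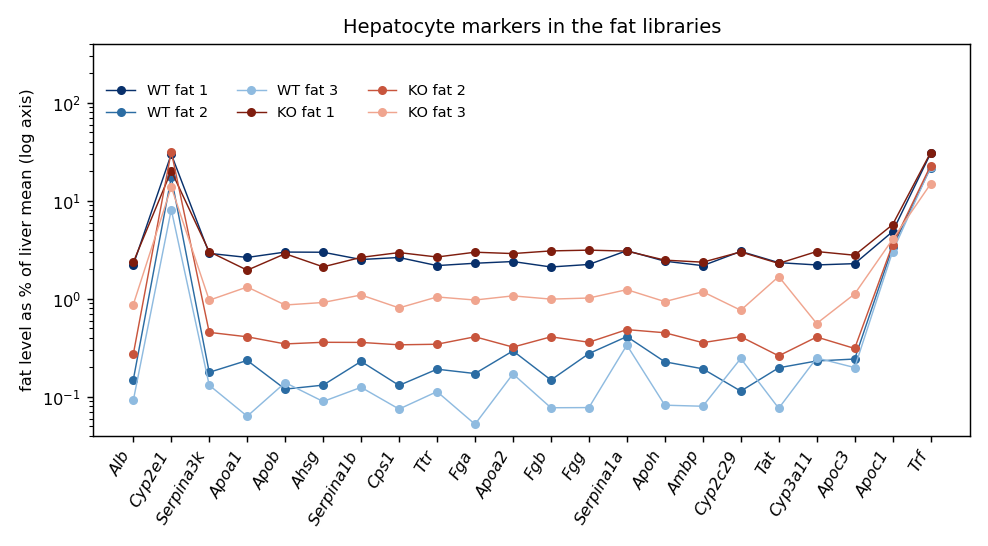
Level of each of 22 hepatocyte markers in each fat library as a percent of its mean liver level (log axis); markers are ordered by liver level and lines join the markers of 1 library. WT 1 and KO 1 run together near 2% to 3%, KO 3 near 1%, and the other 3 libraries between 0.0920% and 0.273% for Alb.

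A second property of the libraries, their GC trend, set KO 2 and KO 3 apart from the WT libraries, but not KO 1. Genes with GC-rich transcripts had higher log2 fold changes (Spearman rho 0.475 over 15901 genes, which are not independent replicates) and against transcript length (rho -0.203). In 4 equal groups of genes by GC share, from low to high, the median log2 fold change was -0.19, -0.06, 0.05 and 0.20. The correlation of each library's deviations with GC share was -0.0213, -0.268 and -0.409 in WT and -0.226, 0.402 and 0.525 in KO libraries, so KO 2 and KO 3 lay above every WT library and KO 1 lay among them. Many values below are also given with this trend removed, and the part of the trend in each result was not otherwise tested.

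**Figure D2:**
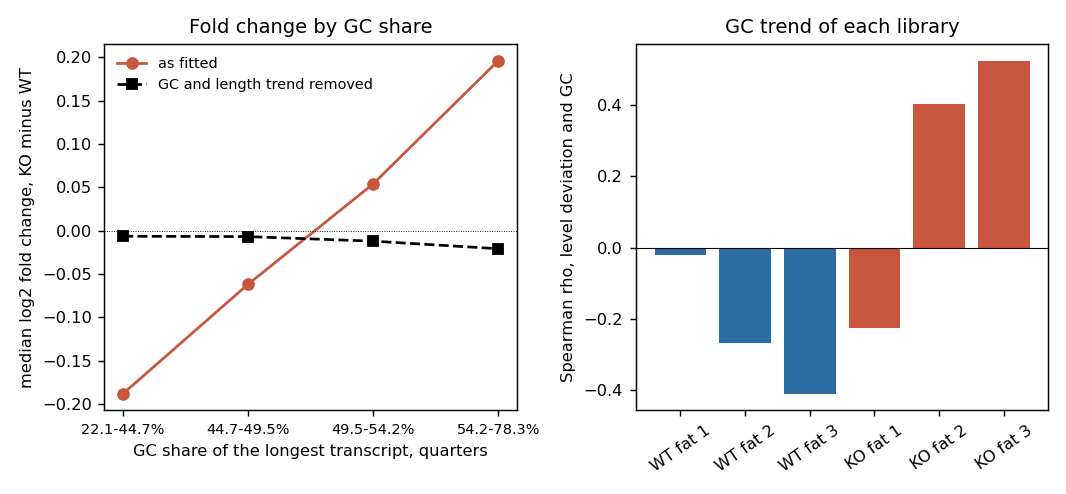
Left, median log2 fold change (KO minus WT) of the genes in each of 4 equal groups by GC share of the longest transcript, as fitted and with each library's GC and length trend removed. Right, Spearman correlation over genes of each library's level deviation with GC share, which is positive only in KO 2 and KO 3.

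Across the transcriptome the genotype difference was small beside the spread between libraries. Of 15919 genes tested, 0 (0%) passed an adjusted p of 0.05 with edgeR or with limma voom. At an unadjusted p under 0.05 there were 695 higher (4.37%) and 521 lower genes (3.27%). DESeq2 called 34 genes higher (0.232% of 14677) and 9 lower (0.0613%). A DESeq2 adjusted p given alone in this report is from that alternative fit, and the edgeR adjusted p of the gene was above 0.05. The KO libraries all lay above the WT libraries for 1123 genes (7.05%) and all below for 1242 (7.8%). Of all tested genes 49.6% had a log2 fold change above 0 and 50.4% below, with a median of -0.0027. These percentages are the background for the counts of list members below. Without KO 1 the counts at an unadjusted p under 0.05 were 1067 higher and 949 lower, without KO 2 they were 282 and 223, and without KO 3 they were 385 and 294. Without WT 1 and KO 1 together they were 1671 and 1477.

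**Figure D3:**
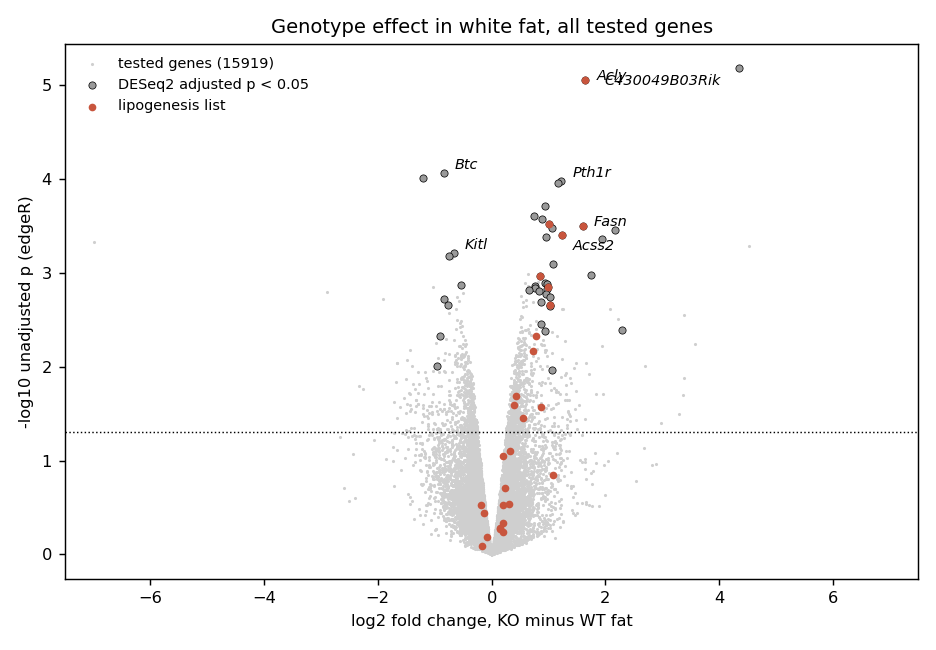
Log2 fold change (KO minus WT) against -log10 of the unadjusted edgeR p-value for 15919 tested genes; colour marks the lipogenesis list, outlined points the DESeq2 calls that edgeR also tested, and the dotted line the unadjusted level of 0.05. Acly and C430049B03Rik have the smallest p and the lipogenesis genes lie mostly on the right.

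Genes of lipogenesis had higher values in KO fat, from citrate export to fatty acid synthase. Of 27 lipogenesis genes, 23 were higher in KO fat, 13 of them at an unadjusted p under 0.05 against a background of 4.37%, and 0 of the other 4 reached it. In 14 of 27 all KO libraries lay above all WT libraries (background 7.05%), and DESeq2 called 7 (background 0.232%). The median log2 fold change was 0.39, and 0.25 with the GC and length trend removed. Without WT 1 and KO 1, the libraries highest in Alb, 22 members were higher, with a median of 0.51. No member passed edgeR's adjusted threshold. Earlier results of these data had already shown this pathway, so its counts describe the pattern and are not independent evidence of it.

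In the supply of acetyl-CoA and NADPH, 8 of 9 genes were higher, 7 at an unadjusted p under 0.05. Slc25a1, the carrier that exports citrate from mitochondria, had 155, 168 and 172 CPM in WT and 270, 405 and 310 CPM in KO libraries. Acly, which cleaves citrate to acetyl-CoA in the cytosol, had 216, 213 and 239 CPM in WT and 663, 828 and 566 CPM in KO libraries. Acss2, which makes acetyl-CoA from acetate, had 57.5, 71.1 and 103 CPM in WT and 173, 203 and 160 CPM in KO libraries. In each of the 3 genes the groups did not overlap and KO library 2 was the highest. Acly differed 3.14-fold (log2 1.65 ± 0.18, adjusted p = 0.0708 by edgeR and 7.67e-16 by DESeq2). For Slc25a1 the log2 fold change was 1.02 ± 0.18 and for Acss2 1.24 ± 0.22, with edgeR adjusted p of 0.428 and 0.436 and DESeq2 adjusted p of 0.000153 and 0.000105.

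Genes of NADPH supply and the pentose phosphate pathway differed among themselves. Malic enzyme Me1 had 344, 511 and 560 CPM in WT and 812, 815 and 675 CPM in KO libraries (0.72 ± 0.21). Of the pentose phosphate pathway, the transketolase gene Tkt had 390, 385 and 389 CPM in WT and 645, 1008 and 613 CPM in KO libraries (0.99 ± 0.22), and DESeq2 called it (adjusted p = 0.00255). The dehydrogenase Pgd (0.55 ± 0.22) and the transaldolase Taldo1 (0.39 ± 0.15, 0.23 with the trend removed) were also higher at an unadjusted p under 0.05, without overlap. G6pdx, whose product opens that pathway, had 247, 329 and 318 CPM in WT and 229, 284 and 320 CPM in KO libraries, which overlapped (-0.08 ± 0.18). The cytosolic isocitrate dehydrogenase Idh1 had a log2 fold change of 0.15 ± 0.22, also with overlap.

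Of the 5 genes of fatty acid synthesis itself, 4 were higher at an unadjusted p under 0.05. Fasn, whose enzyme builds palmitate, had 1856, 2242 and 2706 CPM in WT and 4684, 8838 and 6704 CPM in KO libraries. The lowest KO library thus exceeded the highest WT library, and the groups differed 3.03-fold (log2 1.60 ± 0.28, adjusted p = 0.428 by edgeR and 4.77e-08 by DESeq2). Per kilobase of the gene length given with the deposited counts, Fasn went from rank 148 of all tested genes in WT to rank 43 in KO fat. Thrsp, a lipogenic protein that acts with acetyl-CoA carboxylase, had 343, 459 and 394 CPM in WT and 788, 753 and 595 CPM in KO libraries (0.86 ± 0.18). Acaca, the cytosolic acetyl-CoA carboxylase, had 504, 287 and 279 CPM in WT and 496, 886 and 529 CPM in KO libraries (0.87 ± 0.32), so WT 1 exceeded KO 1. Its mitochondrial form Acacb, which limits fatty acid oxidation, had no such difference (-0.18 ± 0.74), with 407, 144 and 78.6 CPM in WT and 117, 290 and 137 CPM in KO libraries.

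Downstream of palmitate the values were mixed. Elovl6, which elongates palmitate, had 22.7, 27.3 and 43.0 CPM in WT and 68.0, 65.3 and 52.9 CPM in KO libraries (1.02 ± 0.23, DESeq2 adjusted p = 0.0192). Scd1, the main stearoyl-CoA desaturase and the fifth-ranked gene per kilobase in WT fat, had 23484, 17128 and 15865 CPM in WT and 17459, 26753 and 19681 CPM in KO libraries, with overlap (0.20 ± 0.27). Scd2 had 86.2, 212 and 514 CPM in WT and 556, 532 and 606 CPM in KO libraries. These groups did not overlap, but the spread within WT left an SE of 0.63 around its log2 fold change of 1.08. Of the regulators, Srebf1, the transcription factor that insulin induces to drive lipogenesis, had 277, 386 and 288 CPM in WT and 446, 649 and 506 CPM in KO libraries (0.77 ± 0.20, DESeq2 adjusted p = 0.0550). Mlxipl, which encodes the glucose-sensing factor ChREBP, had a log2 fold change of 0.33 ± 0.17 with overlap, and 0.14 with the trend removed. The median of the 7 regulators was 0.21, and -0.01 with the GC and length trend removed.

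**Figure D4:**
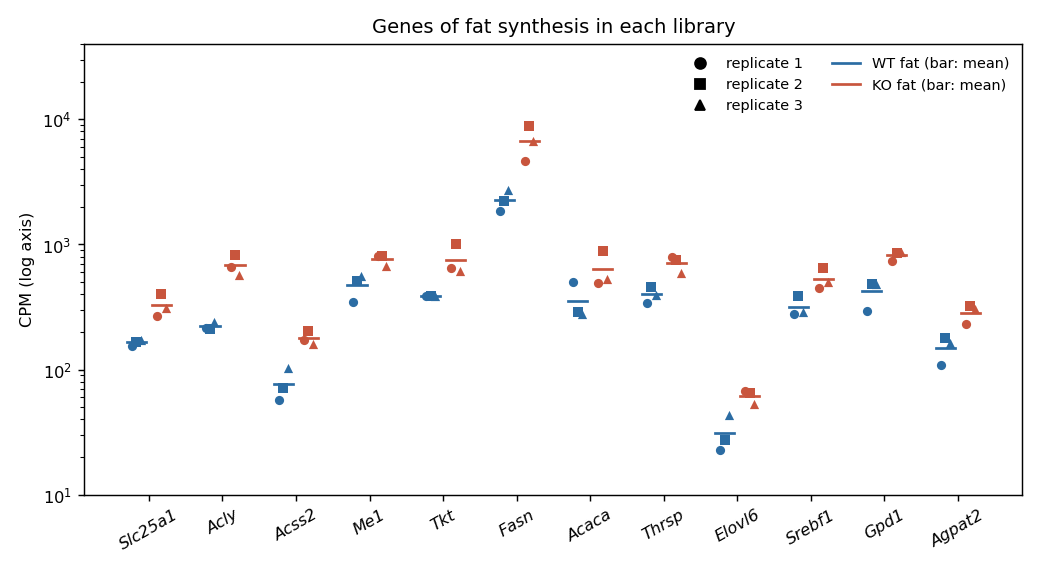
CPM (log axis) of 12 genes of fat synthesis in each fat library; points are libraries, with the marker showing the replicate number, and bars are group means. KO points lie above WT points in all 12 genes except Acaca, where WT 1 exceeds KO 1.

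Triglyceride assembly followed with 13 of 17 genes higher, 7 at an unadjusted p under 0.05, and a median of 0.35 (0.17 with the trend removed). Gpd1, which makes the glycerol 3-phosphate backbone, had 295, 486 and 484 CPM in WT and 731, 851 and 878 CPM in KO libraries (0.98 ± 0.22). Agpat2, an acyltransferase whose loss causes lipodystrophy, had 109, 178 and 163 CPM in WT and 233, 320 and 302 CPM in KO libraries (0.95 ± 0.21). Both were without overlap, with DESeq2 adjusted p of 0.00272 and 0.00864. Dgat2, which adds the last acyl chain, had 712, 1627 and 1746 CPM in WT and 1995, 2246 and 2542 CPM in KO libraries (0.75 ± 0.32). Dgat1, which catalyses the same step, had 0.35 ± 0.13, and 0.14 with the trend removed. The phosphatidate phosphatase Lpin1, one of the 4 lower genes, had all KO libraries below WT (-0.34 ± 0.20), at 1050, 817 and 780 CPM in WT and 543, 741 and 774 CPM in KO libraries.

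Genes for storing and releasing triglyceride differed less. Of 22 droplet and lipolysis genes, 15 were higher and 2 reached an unadjusted p under 0.05, with a median of 0.15 that was -0.00 with the trend removed. These 2 were Pnpla3, a lipogenesis-linked lipase homologue, and Bscl2, which encodes the droplet protein seipin. Pnpla3 had 93, 146 and 136 CPM in WT and 215, 239 and 204 CPM in KO libraries (0.83 ± 0.18, DESeq2 adjusted p = 0.0192), and a log2 fold change of 0.56 with the trend removed. Bscl2 had a log2 fold change of 0.41 ± 0.15. The triglyceride lipase Pnpla2 (-0.14 ± 0.29) and the droplet coat gene Plin1 (0.46 ± 0.21, 0.24 with the trend removed) overlapped between the groups. Of 17 uptake genes, 11 were higher (median 0.05, and 0.185 with the trend removed). Among them was Angptl8, an insulin-induced inhibitor of lipoprotein lipase, at 2.41, 2.25 and 2.34 CPM in WT and 6.73, 5.43 and 4.10 CPM in KO libraries (1.24 ± 0.29). The lipase gene Lpl itself had 0.19 ± 0.23 and the fatty acid receptor Cd36 -0.32 ± 0.21 (-0.08 with the trend removed).

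Other parts of adipocyte metabolism differed by smaller amounts. Among 42 nuclear genes of oxidative phosphorylation 42 were higher in KO fat, against a background of 49.6%, with 11 at an unadjusted p under 0.05, 16 without overlap and a median of 0.25. The range was 0.03 to 0.65, and 0 were called by edgeR or DESeq2. With the GC and length trend removed 39 were higher (median 0.17), and without the libraries highest in Alb 36. Ndufa2 of complex I had 37.9, 43.8 and 35.2 CPM in WT and 50.5, 71.8 and 58.1 CPM in KO libraries (0.65 ± 0.17). Of the 12 tested mitochondrially encoded subunits 5 were higher, with a median of -0.06 that was 0.16 with the trend removed. The difference between the nuclear and mitochondrial lists was not tested.

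In cholesterol synthesis 17 of 22 genes were higher, 5 at an unadjusted p under 0.05. Pmvk, the phosphomevalonate kinase gene, had 12.0, 16.7 and 13 CPM in WT and 21, 28.7 and 28.7 CPM in KO libraries (0.93 ± 0.20, DESeq2 adjusted p = 0.0415). Of 20 fatty acid oxidation genes 14 were higher, yet only Etfb, an electron carrier subunit, reached an unadjusted p under 0.05. Etfb had 9.69, 10.6 and 8.53 CPM in WT and 14.3, 21.5 and 20.2 CPM in KO libraries (0.98 ± 0.21, DESeq2 adjusted p = 0.0447). In glucose use, the lactate dehydrogenase Ldha was higher without overlap (0.56 ± 0.17), at 485, 637 and 678 CPM in WT and 873, 878 and 871 CPM in KO libraries. Pdk4, a fasting-induced kinase that inhibits pyruvate dehydrogenase, was lower (-1.10 ± 0.40) with overlap. It had 138, 224 and 385 CPM in WT and 122, 80.4 and 143 CPM in KO libraries. Slc2a4, the insulin-responsive glucose transporter gene, had 0.37 ± 0.19 (0.22 with the trend removed).

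Adipokine and differentiation genes differed little. Of 23 adipokine genes 15 were higher, 3 at an unadjusted p under 0.05, and 1 of the other 8 was lower at that level; the median of 0.10 was -0.06 with the trend removed. Leptin (Lep) had 859, 2360 and 3305 CPM in WT and 1812, 1443 and 2566 CPM in KO libraries (-0.15 ± 0.47), and Adipoq had 0.15 ± 0.19. C1qtnf12, an insulin-sensitising secreted factor, had 34.5, 39.8 and 35.7 CPM in WT and 49.1, 62.1 and 53.8 CPM in KO libraries (0.61 ± 0.14, 0.31 with the trend removed). Of 21 adipogenic regulators 14 were higher, and Pparg, the master regulator of the adipocyte, had -0.09 ± 0.18. Cebpb, an early adipogenic factor, had 60.3, 68.9 and 66.7 CPM in WT and 74.6, 98.0 and 121 CPM in KO libraries (0.60 ± 0.18), which went to 0.10 with the trend removed. Of 24 thermogenic genes 17 were tested and 10 were higher; Ucp1, the uncoupling protein gene of brown and beige fat, was too low to test.

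**Figure D5:**
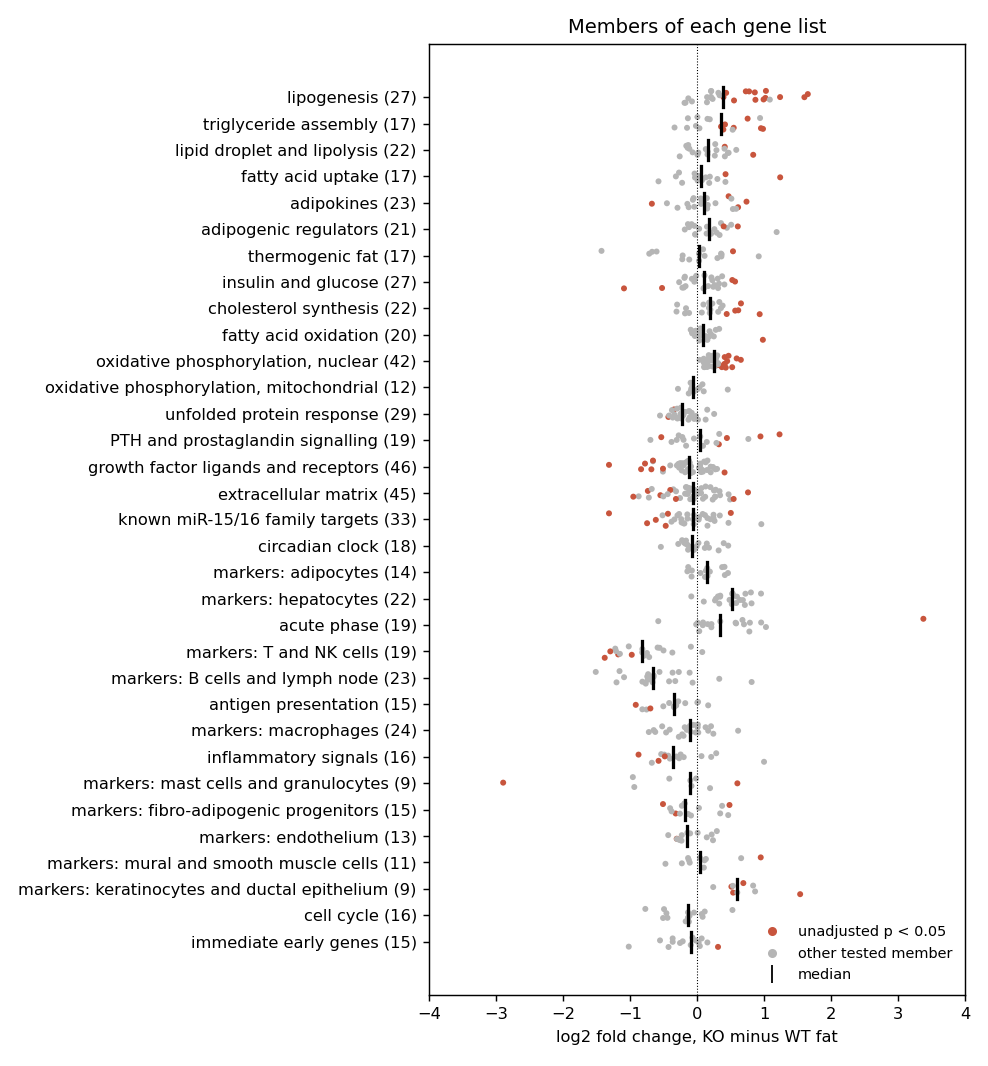
Log2 fold change (KO minus WT) of each tested member of the gene lists with at least 9 tested genes, numbers of tested genes in brackets; red marks an unadjusted p under 0.05 and black bars the list medians. Lipogenesis, triglyceride assembly and nuclear oxidative phosphorylation lie to the right and T and NK cell markers to the left.

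Outside lipid metabolism, genes higher in KO fat with the smallest p included a hormone receptor and a prostaglandin enzyme. Pth1r, the receptor for parathyroid hormone, had 14.1, 11.3 and 12.0 CPM in WT and 23.4, 33.2 and 29.4 CPM in KO libraries (1.23 ± 0.18, DESeq2 adjusted p = 0.000140). Ptges, which makes prostaglandin E2, had 39.1, 49.6 and 47.4 CPM in WT and 78.5, 98.0 and 81.0 CPM in KO libraries (0.94 ± 0.15, DESeq2 adjusted p = 0.000691). Neither gene's groups overlapped, and KO library 2 was the highest in both. Of the 19 tested genes of these pathways 10 were higher (background 49.6%), 4 at an unadjusted p under 0.05 (background 4.37%). The other 9 were lower, 1 of them at that level (background 3.27%). The list median was 0.04, and -0.08 to 0.25 when each library was left out, so the list as a whole was not higher. Ptger3, a prostaglandin E2 receptor that restrains lipolysis, had 29.5, 77.5 and 60.7 CPM in WT and 91.2, 88.6 and 101 CPM in KO libraries (0.76 ± 0.33), again without overlap.

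Emilin2, an elastic fibre glycoprotein gene, had 99.3, 112 and 78.4 CPM in WT and 172, 180 and 246 CPM in KO libraries (1.06 ± 0.19). Slpi, a secreted protease inhibitor, had 63.6, 70.9 and 90.4 CPM in WT and 133, 143 and 132 CPM in KO libraries (0.88 ± 0.15). In both genes the lowest KO library lay above the highest WT library. Further genes among the first 15 protein-coding genes by p, all without overlap as the selection requires, were Ano8 (0.75), Parm1 (0.95), Rhbdl3 (1.08), Prrt4 (1.75) and Esrra (0.65), a nuclear receptor that drives genes of oxidative metabolism. Esrra had 21.5, 26.4 and 25.7 CPM in WT and 37.6, 37.3 and 38.7 CPM in KO libraries.

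Among the first 15 protein-coding genes lower in KO fat by p were 3 growth factor ligands. The processed pseudogene Gm10123 (-1.20 ± 0.18) had the smallest DESeq2 adjusted p of the lower genes, 5.61e-06. Btc, which encodes the EGF receptor ligand betacellulin, had 40.3, 42.5 and 46.0 CPM in WT and 24.7, 22.0 and 24.2 CPM in KO libraries (-0.84 ± 0.12, adjusted p = 0.291 by edgeR and 0.00111 by DESeq2). Kitl, the stem cell factor gene, had 157, 129 and 152 CPM in WT and 101, 82.6 and 89.8 CPM in KO libraries (-0.66 ± 0.13, DESeq2 adjusted p = 0.0131). Pdgfd, a platelet-derived growth factor gene, had 31.9, 37.3 and 35.1 CPM in WT and 23.3, 19.9 and 20.7 CPM in KO libraries (-0.69 ± 0.13, DESeq2 adjusted p = 0.0553). Every KO library lay below every WT library in the 3 ligand genes. Of 46 growth factor and receptor genes 29 were lower, 6 at an unadjusted p under 0.05 against a background of 3.27%, and 1 of the other 17 was higher at that level. In 6 of 46 all KO libraries lay below WT (background 7.8%), and DESeq2 called 2 lower (background 0.0613%). The receptors Kit (-0.07 ± 0.16) and Egfr (-0.28 ± 0.15) overlapped between the groups. With the trend removed Btc had -0.58, Kitl -0.41 and Pdgfd -0.49.

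Other genes lower in KO fat without overlap included Sult1e1, an oestrogen sulfotransferase (-0.84 ± 0.19), Slc7a8, an amino acid transporter (-0.57 ± 0.13), Arrdc3, an adaptor that lowers beta-adrenergic receptor signalling (-0.63 ± 0.15), and Ugcg, the glucosylceramide synthase gene (-0.53 ± 0.11). Ccl11, the eosinophil attractant eotaxin, had 93.6, 79.1 and 81.5 CPM in WT and 58.1, 35 and 54.0 CPM in KO libraries (-0.77 ± 0.18). Ccr3, the receptor for eotaxin on eosinophils, had 2.72, 0.939 and 1.79 CPM in WT and 0.408, 0.192 and 0.126 CPM in KO libraries (-2.90 ± 0.64). Its KO 2 and KO 3 values were no higher than the level of 3 counts, and DESeq2 gave it no adjusted p. Only the WT libraries carried Ccr3 past the filter on low counts, so its lower value is tied to that filter. Of the 9 tested mast cell and granulocyte markers, Ccr3 among them, 7 were lower (median -0.105). At an unadjusted p under 0.05, 1 was higher, and the 1 that was lower was Ccr3 itself. The summed list overlapped, at 33.8 to 73.6 CPM in WT and 41.1 to 60.1 CPM in KO libraries. Chrdl1, a secreted inhibitor of bone morphogenetic proteins, had 469, 367 and 256 CPM in WT and 197, 221 and 154 CPM in KO libraries (-0.91 ± 0.24, DESeq2 adjusted p = 0.0298). The remaining genes among the first 15 lower by p were Plekhg1 (-0.75), Ranbp9 (-0.54), Prex2 (-0.50), Senp7 (-0.60), 2610002M06Rik (-0.61), Nxt2 (-0.54) and 9930111J21Rik2 (-0.75), which has a close paralog that may share its reads. Prex2 went to -0.24, Nxt2 to -0.27, 2610002M06Rik to -0.35 and Senp7 to -0.36 with the trend removed.

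Matrix genes differed in direction by kind. Of 20 collagen genes 15 were higher (background 49.6%). At an unadjusted p under 0.05, 2 collagen genes were higher (background 4.37%) and 1 lower (background 3.27%). Of 25 other matrix and remodelling genes 22 were lower (background 50.4%), 4 of them at that level. In the whole list of 45 genes 27 were lower, and 19 to 30 when each library was left out, with medians of -0.16 to 0.07. The difference between the 2 kinds was not tested. Col5a3, a fibrillar collagen gene expressed in fat, had 457, 511 and 549 CPM in WT and 718, 848 and 960 CPM in KO libraries (0.76 ± 0.16, DESeq2 adjusted p = 0.00406). Thbs2, a matricellular thrombospondin gene, had 286, 189 and 160 CPM in WT and 75.6, 108 and 139 CPM in KO libraries (-0.96 ± 0.28, DESeq2 adjusted p = 0.0447). Neither pair of groups overlapped. Col5a3 had 0.48 with the trend removed. The collagen median of 0.19 was 0.06 with the trend removed, and the other matrix median of -0.17 was -0.21.

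In the unfolded protein response, 17 of 17 chaperone and folding genes were lower in KO fat (background 50.4%), with log2 fold changes of -0.43 to -0.02, while 8 of 12 sensor and response genes were. The chaperone gene Hspa5 had 625, 468 and 577 CPM in WT and 508, 349 and 364 CPM in KO libraries (-0.43 ± 0.18). KO 1 exceeded WT 2, so the groups overlapped. In the whole list of 29 genes, 2 reached an unadjusted p under 0.05 and 1 was without overlap.

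Immune cell markers mostly had lower values in KO fat, but for B cells and macrophages the direction depended on single libraries. Of 19 tested T and NK cell markers 18 were lower (median -0.82), 4 of them at an unadjusted p under 0.05. Cd3e, a subunit of the T cell receptor complex, had 1.77, 2.07 and 2.48 CPM in WT and 0.748, 0.447 and 1.20 CPM in KO libraries (-1.38 ± 0.46). The summed T and NK markers ran from 31.7 to 123 CPM in WT and from 15.2 to 61.8 CPM in KO libraries, which overlapped. B cell and lymph node markers were lower in 21 of 23 (median -0.67) with 0 at an unadjusted p under 0.05, and summed to 519 to 1962 CPM in WT and 774 to 1867 CPM in KO libraries. Without WT 2 only 10 of these 23 were lower, with a median of 0.17. Antigen presentation genes were lower in 12 of 15 (median -0.35). Macrophage markers were lower in 16 of 24 (median -0.105), and WT 3 had the highest sum, 5010 CPM, beside 2577 and 2100 CPM in the other WT and 1698 to 4121 CPM in KO libraries. Without WT 3 only 7 macrophage markers were lower (median 0.41), and without KO 2 only 9. In bulk tissue, fewer cells of a type and less RNA per cell cannot be told apart. Inguinal fat can hold a lymph node, and the part of such tissue in the immune values was not tested.

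Epithelial markers went the other way. Of 19 keratinocyte and ductal markers 9 were tested, 9 were higher (median 0.60) and 4 reached an unadjusted p under 0.05. Their sum over the list was 102, 108 and 88.0 CPM in WT and 148, 167 and 132 CPM in KO libraries, without overlap, and 2 of the 19 were at 0 in all 6 libraries. Krt19 had 39.5, 45.1 and 35.9 CPM in WT and 55.7, 62.1 and 54.2 CPM in KO libraries (0.53 ± 0.14, 0.29 with the trend removed). The other members at an unadjusted p under 0.05 were Krt18, Krt8 and Krt14, and Krt8 and Krt14 overlapped between the groups. Scaled by Alb, the liver level corresponds to up to 16.9% of the Krt8 and 19.7% of the Krt18 level in a fat library. The part of liver RNA in the epithelial values was not tested. Of 15 fibro-adipogenic progenitor markers 10 were lower (median -0.19) and of 13 endothelial markers 8 (median -0.15). Skeletal muscle and erythroid markers, with 4 and 5 tested, were lower, 0 of them at an unadjusted p under 0.05; without WT 2 the erythroid count was 0 of 5, and without WT 3 the muscle count was 2 of 4. The part of these cell types in the lipogenic values was not tested; the adipocyte markers had a median of 0.14, with 0 of 14 at an unadjusted p under 0.05.

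The direct question for a microRNA deletion is whether messages with seed sites were higher. Of 13764 tested genes with an annotated 3′ UTR, 3365 (24.4%) hold TGCTGCT, which pairs with the miR-322 seed, 674 (4.9%) hold CGCTGCT for miR-503, and 2174 (15.8%) hold CTCAGGG for miR-351. For miR-322 the median log2 fold change was -0.03 with a site and 0.01 without, and for miR-503 it was 0.01 and 0.00. At an unadjusted p under 0.05, 3.74% of the genes with a miR-322 site were higher and 4.43% lower, against 5.02% and 3.15% of those without. Messages with miR-322 sites were thus not shifted upward. With the GC and length trend removed, the 2 medians for miR-322 were -0.00 and -0.01. For miR-503 4.3% of the genes with a site were higher at that level and 4.9% lower, against 4.73% and 3.39% without. For miR-351 these shares were 5.24% and 3.4% with a site and 4.61% and 3.48% without. The miR-351 medians were 0.017 with a site and -0.002 without, and -0.003 and -0.009 with the trend removed.

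Among 33 tested genes described as targets of the miR-15/16 family, 14 were higher (background 49.6%) and 19 lower (background 50.4%). At an unadjusted p under 0.05, 1 was higher (background 4.37%) and 5 lower (background 3.27%). In 5 all KO libraries lay below WT (background 7.8%), and in 0 all lay above (background 7.05%). The list median was -0.06, and -0.18 to 0.02 when each library was left out. The cyclin gene Ccnd1, a known target, had 41.0, 40.9 and 29.9 CPM in WT and 26.1, 25.1 and 28.4 CPM in KO libraries (-0.47 ± 0.16), so all KO libraries were below WT. Anln, which acts in cell division, was also lower without overlap (-0.62 ± 0.16), as was E2f7 (-0.75 ± 0.27). Ccnd3 had a higher value (0.50 ± 0.18, 0.29 with the trend removed) with overlap.

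Of the first 15 protein-coding genes higher by p, 2 hold a miR-322 site, 1 a miR-503 site and 3 a miR-351 site; of the first 15 lower, 1, 0 and 3. Sites are shown for the higher genes Fasn and Esrra and for the lower Ccnd1, since both directions occur among genes with a match. Capitals mark the 7 letters that pair with the seed.
Fasn, miR-322 site at position 729 of the 3′ UTR: cctggtaaaaaTGCTGCTcttgatgctct
Esrra, miR-322 site at position 376, which overlaps another at 373: gatgcttttgcTGCTGCTtaatccgatct
Ccnd1, miR-503 site at position 1730: tcctctcatggCGCTGCTaccgatgactc

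Since most lipogenic genes had higher values, their promoters (RefSeq, GRCm38.p6, 250 bases before to 50 after the start) were searched on both strands for motifs of the factors known to drive them. Of 24 lipogenesis genes with a promoter, 15 hold CCAAT, the NF-Y box, compared with 42.4% of 11394 tested genes with one. CACGTG, the E-box that USF factors bind, occurs in 5 of 24 against 11.2%, and GGGCGG, the GC box, in 16 of 24 against 65.3%. A sterol response element written as TCACNCCAC occurs in 1 of 24 against 1.39%. The promoters of Acly, Fasn and Slc25a1 are shown as those of the 3 lipogenesis genes with the smallest p; capitals mark CCAAT or CACGTG on either strand, and the CCAATTGG of Fasn holds 2 overlapping copies.
Acly, chr11:100527951-100528250, minus strand: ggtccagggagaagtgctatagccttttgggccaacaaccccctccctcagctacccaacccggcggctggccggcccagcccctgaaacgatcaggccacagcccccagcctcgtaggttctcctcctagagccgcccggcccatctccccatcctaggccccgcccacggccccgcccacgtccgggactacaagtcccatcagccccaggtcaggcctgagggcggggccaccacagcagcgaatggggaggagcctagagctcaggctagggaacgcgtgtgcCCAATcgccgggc
Fasn, chr11:120824498-120824797, minus strand: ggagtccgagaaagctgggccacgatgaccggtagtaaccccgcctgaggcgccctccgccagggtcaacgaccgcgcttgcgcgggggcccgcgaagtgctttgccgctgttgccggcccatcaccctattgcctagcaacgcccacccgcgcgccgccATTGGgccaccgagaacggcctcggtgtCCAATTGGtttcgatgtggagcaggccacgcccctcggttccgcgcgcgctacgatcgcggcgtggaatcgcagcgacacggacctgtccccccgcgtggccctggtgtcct
Slc25a1, chr16:17928170-17928469, minus strand: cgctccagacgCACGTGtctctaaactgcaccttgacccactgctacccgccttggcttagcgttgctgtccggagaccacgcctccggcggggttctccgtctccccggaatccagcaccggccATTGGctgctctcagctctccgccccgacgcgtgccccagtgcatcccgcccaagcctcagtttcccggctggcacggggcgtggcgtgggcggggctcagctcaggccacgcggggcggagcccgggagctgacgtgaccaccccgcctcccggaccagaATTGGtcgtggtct
The Fasn copies of CCAAT start at -90, -62 and -59 from the transcription start and that of Acly at 38. Slc25a1 holds CACGTG at -239 and CCAAT at -125 and 37. A match is a description of the letters and not evidence of binding.

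In liver of the same genotypes Acly had a log2 fold change of 0.15 and Fasn of -0.03. The difference of the genotype effects, fat minus liver, was 1.49 for Acly and 1.62 for Fasn, with adjusted p of 0.159 and 0.214 by edgeR over all genes, so the fat effect was not shown to be particular to fat.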

How the data were processed

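RNA-seq of total RNA from white fat and liver was made with a directional kit, per the labels' protocols; CASAVA 1.8, HISAT2 and the build GRCm38 (mm10) are named in the submitters' processing notes. The deposited table holds whole-number read counts per gene for 54532 identifiers; the sources used here name no counting program, annotation or strand setting, so antisense, overlapping and paralogous genes are uncertain. The 3 KO and 3 WT fat libraries were fitted with edgeR 4.0.16 in R 4.3.3 (TMM factors, filterByExpr, robust quasi-likelihood test, Benjamini-Hochberg adjustment over all 15919 tested genes, threshold 0.05). DESeq2 1.42.0, limma voom 3.58.1, other normalizations and filters, leaving out libraries, a replicate block, an Alb covariate and removal of GC and length trends (lowess, span 0.3) were alternatives. Liver libraries entered only the Alb scaling, the fit of all 12 libraries and the fat-minus-liver contrast. The edgeR script was tested on simulated data. At the adjusted threshold it recovered 42% of 88 genes planted with a log2 change of 1 and 89.3% of 112 planted with 2. It made 8 false calls. Most planted log2 changes of 1 were thus missed, so 0 calls by edgeR does not show that changes of that size are absent.

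The gene lists, the members named and the alternatives were chosen with earlier results of these data known. Genes were named by rule: the cluster genes; the 15 protein-coding genes per direction with the smallest p among those without overlap and with a mean log2 CPM of 1 or more; 4 members of each list; the DESeq2 calls; and marker genes. Genes outside that rule, among them Me1, Acaca, Scd1, Scd2, Srebf1, Lpin1, Ptger3, Lep, Pparg and Ucp1, were named for their role or after their values were seen. Gene lengths for ranks per kilobase are those given with the deposited counts. Transcript lengths and GC shares for the trend, and 3′ UTRs, are from GENCODE M21, and microRNA and promoter sequences from RefSeq. Some genes that the rule selects are not reported here.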

Additional observations from a re-analysis of the deposited data

How the results depend on the processing

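The count past the adjusted threshold depended on the setting. It was 0 with edgeR, 29 without a filter on low counts, 43 with DESeq2, 3 with all 12 libraries in 1 fit, 2 at an adjusted p under 0.1, and 0 to 1 when each library was left out. Genes higher at an unadjusted p under 0.05 numbered 282 to 1067 when each library was left out and 1671 without WT 1 and KO 1. Genes lower numbered 223 to 949 and 1477 in those settings. Removal of the GC and length trend gave 464 higher and 348 lower. With a replicate block there were 550 higher and 320 lower; same-numbered libraries had deviations correlated at 0.0608, 0.16 and 0.0659, so the numbers do not establish pairs.

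Leaving out each library in turn, 21 to 24 lipogenesis genes and 39 to 42 nuclear oxidative phosphorylation genes were higher, and 17 to 19 T and NK cell markers were lower. Other lists were less stable: 10 to 22 B cell, 7 to 20 macrophage, 0 to 5 erythroid, 1 to 15 cell cycle and 7 to 15 clock genes were lower, and 3 to 22 hepatocyte markers were higher. Acly ranged from 1.47 to 1.78 and Fasn from 1.33 to 1.8. Of 522 values under the alternatives for the named genes among the first 15 by p in each direction, 0 changed sign. These genes were chosen from the same libraries for a small p and no overlap between groups. A change of sign was thus unlikely from the outset, and the 0 is not evidence of stability. Genes whose sign changed were near 0 or widely spread, and the cause was not tested. The leave-one-out ranges were -0.72 to 0.72 for Acacb, -0.0031 to 0.22 for Adipoq, -0.50 to 3.26 for Alb, -0.22 to 0.038 for G6pdx, -0.045 to 0.36 for Idh1, -0.17 to 0.052 for Kit, -0.55 to 0.27 for Lep, -0.39 to 0.11 for Pnpla2, -0.27 to 0.041 for Pparg and -0.015 to 0.37 for Scd1. Without WT 1 and KO 1, Acacb had 0.96, Idh1 -0.20, Lpl -0.050 and Pnpla2 0.25. With limma voom Acacb had 0.030 and Lep 0.016, with the replicate block 0.081 and 0.010, and with Alb as a covariate Lep had 0.49 and G6pdx 0.059.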

Other observations

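Several gene groups had small or mixed differences. Of 18 circadian clock genes 11 were lower in KO fat, of 16 cell cycle genes 12 and of 15 immediate early genes 10, with 0 of the clock and cell cycle genes at an unadjusted p under 0.05. These directions depended on single libraries: without WT 3 only 1 cell cycle gene was lower, without WT 1 only 7 and without KO 1 only 8 clock genes, and without WT 1 only 7 immediate early genes. Of 16 inflammatory signal genes 12 were lower, 3 of them at that level, and 8 were lower without WT 3. Tlr4, the receptor for bacterial lipopolysaccharide, had 46.7, 35.2 and 45.5 CPM in WT and 34.4, 28.1 and 27.1 CPM in KO libraries (-0.49 ± 0.16, -0.27 with the trend removed), without overlap. Acute phase genes were higher in 17 of 19 (median 0.34), and in 10 without KO 1, beside hepatocyte markers that were higher in 21 of 22; the part of liver RNA in these values was not tested.

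Other genes called by DESeq2 were also higher in KO fat. Slc25a10, the mitochondrial dicarboxylate carrier gene, had 133, 227 and 229 CPM in WT and 315, 358 and 382 CPM in KO libraries (log2 fold change 0.86, and 0.54 with the GC and length trend removed). Gpt, an alanine aminotransferase gene, had 101, 147 and 127 CPM in WT and 186, 215 and 223 CPM in KO libraries (0.76, and 0.49 with the trend removed). Cspg4, a marker of mural cells, had 36.0, 30.6 and 36.4 CPM in WT and 41.1, 74.8 and 79.2 CPM in KO libraries (0.95 ± 0.24), while 6 of the 11 mural markers were higher, and 3 without KO 3 and 4 without WT 3. None of these genes' groups overlapped.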
